A study of Homo sapiens with 6 samples.

Results

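The region described here is the large histone gene cluster on the short arm of chromosome 6, at 6p22, taken as chromosome 6 from 26 to 27.9 Mb in hg19. All H3AcK9 peaks that share at least 1 base with it were included, wherever a list has one. The untreated list held 432 such peaks, the vorinostat lists 1050 and 1043, and the romidepsin lists 1154 and 1149. That is 4828 of the 3983296 peaks in all 5 lists. The cells were SKOV3 WT, an established line from a human ovarian carcinoma, either untreated or after 24 h with vorinostat or romidepsin, each at 1 times its IC50. Both compounds inhibit histone deacetylases (HDACs), the enzymes that remove acetyl groups from lysines. Chromatin carrying H3AcK9, histone 3 acetylated at lysine 9, was immunoprecipitated in 1 sample for each condition, and its DNA was sequenced. Per the sample labels the sequencing company split each treated sample in 2, whereas notes in the study also speak of independent experiments and biological replicates. Both lists of a drug were taken here as coming from 1 sample and not as replicates. Differences between conditions could therefore not be set against a spread between replicates, and no test was made. Treated values below are given for each list or as the mean of both.

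Histone proteins package DNA into nucleosomes. The core histones H2A, H2B, H3 and H4 form the spool on which DNA is wound, and linker histone H1 binds where DNA enters and leaves it. Dividing cells need large amounts of histones while they copy their DNA, and most genes for this supply stand in clusters, of which the one at 6p22 is the largest in humans. These genes are short, mostly without introns, and are active in S phase. H3AcK9 is a mark of active promoters, and acetylation of histones loosens their hold on DNA. Drugs that block HDACs raise the acetylation of histones in the cell as a whole.

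The layout of the genes was read from the RefSeq annotation of GRCh38.p14, since no annotation of hg19 was used here. Of 54 replication-dependent histone genes sought by name, 54 were found. They fell into dense groups with long stretches between them. The first group, from H1-1 to H4C8, held 31 of the genes in 268.5 kb, together with HFE, which codes for a regulator of iron uptake, and H4C7, a histone gene not among those sought. After a stretch of 846.8 kb came a group of 5 genes, from H2BC11 to H2AC12, in 15.2 kb. After a further 659.9 kb came a group of 16 genes, from H2BC13 to H2BC17, in 86.4 kb. H2AC1 and H2BC1, a pair expressed in testis, stood 289.7 kb ahead of the first group. In GRCh38 this pair lies before 26 Mb, the position at which the region starts in hg19, and it is given here as part of the gene layout only. The 52 genes of the dense groups were 6 for H1, 11 for H2A, 14 for H2B, 10 for H3 and 11 for H4. The first long stretch held the butyrophilin genes BTN1A1, BTN2A1, BTN2A2, BTN3A1, BTN3A2 and BTN3A3, which code for membrane proteins of the immunoglobulin superfamily, as well as HMGN4, ABT1, ZNF322 and 47 tRNA genes. The other long stretch held PRSS16, POM121L2, ZNF391, ZNF184 and 51 tRNA genes. Among genes with a listed promoter, adjacent H2A and H2B genes transcribed away from each other formed 9 pairs, with 193 to 247 bp between them (median 239 bp), a stretch in which the promoters of both genes lie. Positions in GRCh38 and hg19 differ, and none was converted. The gene groups are therefore described by their order and spacing, and no gene was assigned to a peak.

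Histone promoters are compact, and 3 of them are shown because they carry the short elements by which classes of histone genes differ. Each is the 250 bases before the gene's start in RefSeq, 5′ to 3′ on the gene's strand, with the matched elements in capitals. H1-1 (chr6:26017788-26018037, GRCh38.p14, minus strand) codes for a linker histone, H2BC3 (chr6:26043714-26043963, minus strand) for an H2B, and H4C2 (chr6:26027284-26027533, minus strand) for an H4.
H1-1: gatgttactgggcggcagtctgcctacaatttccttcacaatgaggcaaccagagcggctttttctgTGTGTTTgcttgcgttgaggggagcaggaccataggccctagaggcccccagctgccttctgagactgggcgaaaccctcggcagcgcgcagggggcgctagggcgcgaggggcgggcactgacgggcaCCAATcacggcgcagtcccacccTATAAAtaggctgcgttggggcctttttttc
H2BC3: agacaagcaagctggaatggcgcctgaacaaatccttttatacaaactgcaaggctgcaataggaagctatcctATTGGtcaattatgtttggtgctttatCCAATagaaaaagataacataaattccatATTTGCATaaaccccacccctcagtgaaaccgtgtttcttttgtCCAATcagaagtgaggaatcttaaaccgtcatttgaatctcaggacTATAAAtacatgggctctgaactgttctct
H4C2: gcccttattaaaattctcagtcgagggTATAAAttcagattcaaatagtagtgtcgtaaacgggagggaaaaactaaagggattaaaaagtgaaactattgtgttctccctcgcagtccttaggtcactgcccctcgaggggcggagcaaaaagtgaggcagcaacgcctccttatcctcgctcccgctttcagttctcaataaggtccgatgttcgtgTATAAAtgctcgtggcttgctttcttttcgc
The capitals mark TATAAA on the gene's strand, and CCAAT, ATTTGCAT (the octamer) and AAACACA (the H1 box) on either strand. Positions are those of an element's first base and are counted backwards from the gene's start. H1-1 held the H1 box at -183, CCAAT at -54 and TATAAA at -31. H2BC3 held the octamer at -120, CCAAT elements at -176, -149 and -76, and TATAAA at -30. H4C2 held TATAAA at -223 and -31 and none of the other elements. None of the marked elements overlapped another. The listed promoters span 250 bases before and 50 after a gene's start, and one was listed for 49 of the 54 genes. TATAAA was found in 55.1% of these 49 and in 8.99% of the 27305 genes with a listed promoter. CCAAT was found in 87.8% of the histone genes and in 39.7% of all. It was present in every listed H1, H2A, H2B and H3 promoter but in 3 of the 9 for H4. The octamer was found in 9 of 11 H2A and 12 of 15 H2B promoters, and in 2.19% of all genes. The H1 box was found in 6 of 6 H1 promoters, in none of the other histone classes, and in 6.94% of all genes. A match to these letters is a description of the sequence and not evidence of a bound factor.

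In untreated cells the histone gene region had the highest share of bases under H3AcK9 peaks among windows of its size on chromosome 6. Untreated peaks covered 687507 bases, or 36.2% of the region. They covered 10.1% of the rest of chromosome 6, between its first and last peak. The number of peaks was less extreme, at 227 per Mb in the region and 126 per Mb in the rest. The peaks were also wide, with a median width of 722.5 bp against 502 bp. Of the untreated peaks, 31 (7.18%) were at least 5 kb wide in the region and 280 (1.32%) in the rest, and 7 in the region were at least 10 kb wide. Chromosome 6 was also cut into consecutive windows as long as the region, of which 74 others held at least 100 untreated peaks. Their covered share ran from 2.68% to 31.1%, with quartiles of 6.69% and 14.8%, and none reached that of the histone region. The mean width of its untreated peaks, 1591 bp, was likewise above that of every other window, where the highest value was 1254 bp. By number of untreated peaks, 7 other windows stood above it.

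After either drug the peaks of the region were more numerous and narrower, and together they covered fewer bases. Covered bases show where peaks were called in each list and do not measure the amount of H3AcK9. Vorinostat peaks covered 448504 and 433931 bases, and romidepsin peaks 477421 and 473551 bases. These are 23.6%, 22.8%, 25.1% and 24.9% of the region. Treated coverage was thus 0.642 times the untreated coverage with vorinostat and 0.692 times with romidepsin, and the lists of a drug lay close together, at 0.652 and 0.631 for vorinostat and at 0.694 and 0.689 for romidepsin. Peak numbers changed by factors of 2.42 and 2.67. The median width was 245.5 and 246 bp in the vorinostat lists and 264.5 and 260 bp in the romidepsin lists. No treated peak of the region reached 5 kb, and the widest had 4635 bp. The narrowest untreated peak had 127 bp and the narrowest treated peaks 50 and 51 bp, so the lists also differ in the smallest peak they hold. With peaks under 200 bp left out of every list, the factors in peak number were 1.60 and 1.82, and those in covered bases 0.579 and 0.631. With peaks joined across gaps of up to 1000 bp, the peak number changed by factors of 1.30 and 1.22, and the covered bases by 0.961 with vorinostat and 1.06 with romidepsin. Once such gaps were counted as covered, the treated lists thus covered about as many bases as the untreated list. Divided by the factor of the rest of chromosome 6 under the same rule, the region's factors were 0.766 and 0.782.

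The net fall in covered bases was larger in the histone region than in the rest of chromosome 6, whereas the gain in peak number differed less. This net value counts bases kept and bases added together. Of its untreated bases the region kept the larger share, 48.2% with vorinostat and 49.2% with romidepsin against 35.6% and 36.5% in the rest, and it added less, as given below. In the rest, the covered bases changed by factors of 0.855 with vorinostat and 0.887 with romidepsin. The region's factor divided by that of the rest was 0.751 for vorinostat, with 0.755 and 0.747 for the single lists, and 0.780 for romidepsin, with 0.772 and 0.788. The covered share of the region was 3.60 times that of the rest in untreated cells and 2.69 to 2.84 times in the treated lists. Among the 74 other windows, the covered bases changed by a median factor of 0.832 with vorinostat and 0.845 with romidepsin. With vorinostat 1 window fell below the histone region, and with romidepsin 6 did. The window that did so with both drugs lies directly after the region on the chromosome, with factors of 0.561 and 0.609. It was also the one with the widest untreated peaks among the other windows, at a mean of 1254 bp. A stronger fall than that of the region was thus found next to it, in a sparser window with 120 untreated peaks over 7.92% of its bases. The peak number changed by 2.34 times with vorinostat and 2.37 times with romidepsin in the rest, so that the region's change was 1.03 and 1.12 times as large. Among the alternatives this relative peak number ran from 0.787 to 1.401 with vorinostat and from 0.836 to 1.39 with romidepsin. By the unfiltered measure 23 other windows stood above it with vorinostat and 10 with romidepsin. The difference from the rest depended on which peaks were counted. With only peaks of a deposited score of at least 1, the region's factor in covered bases divided by that of the rest was 1.04 with vorinostat and 0.956 with romidepsin. The scale of that score is not given in the sources used here.

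Peak coverage was not even along the region. Untreated coverage was highest in the first 300 kb and the last 200 kb, with lower rises on either side of a nearly empty stretch, to 52.5% in chr6:26500000-26599999 and 50.5% in chr6:27100000-27199999. The 5 windows of 100 kb with the most untreated covered bases were chr6:26200000-26299999 with 75756, chr6:26000000-26099999 with 72292, chr6:26100000-26199999 with 71046, chr6:27800000-27899999 with 59265, and chr6:27700000-27799999 with 56933. The first 300 kb, bounded after the profile had been seen, had 73.0% of its bases under untreated peaks, 48.3% and 46.7% under vorinostat peaks, and 50.1% and 50.5% under romidepsin peaks. The last 200 kb was covered to 58.1%, then to 36.4% and 35.2%, and to 38.7% and 38.6%. The 1400 kb between them was covered to 25.2%, then to 16.5% or slightly less with vorinostat, and to 17.8% and 17.5% with romidepsin. The fall in coverage was nearly the same in the dense ends and in the middle. With vorinostat the factors were 0.650 in the first stretch, 0.645 in the middle and 0.616 in the last, and with romidepsin they were 0.689, 0.702 and 0.665. The peak number rose more at the ends, by factors of 3.08 and 2.89 against 2.15 in the middle with vorinostat, and by 3.38 and 3.20 against 2.36 with romidepsin. In the gene order of GRCh38, too, the largest groups of histone genes stand at the ends of the cluster, but these values place no gene under a peak.

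Coverage was lower after treatment in each larger window with at least 1000 untreated covered bases. Of the 19 windows of 100 kb, 17 had at least 1000 untreated covered bases, and in 17 of these 17 every treated list covered fewer bases than the untreated list. In the rest of chromosome 6 both lists of a drug were lower in 57.7% of 1384 such windows with vorinostat and in 64.7% with romidepsin. The ratios in the region ran from 0.428 to 0.837 with vorinostat (median 0.645, against 0.878 in the rest) and from 0.433 to 0.881 with romidepsin (median 0.679, against 0.820 in the rest). The window chr6:26300000-26399999 had the highest ratio with either drug. It held 40639 untreated covered bases, 34873 and 33118 after vorinostat, and 35967 and 35614 after romidepsin. The lowest ratio with vorinostat lay in chr6:26900000-26999999, where 9804 untreated covered bases compared with 3948 and 4447 after vorinostat and 5331 and 5056 after romidepsin. The lowest with romidepsin lay in chr6:27300000-27399999, where 20055 untreated covered bases compared with 12509 and 11110 after vorinostat and 8760 and 8602 after romidepsin. Between the covered stretches, chr6:26706763-26924204 held no untreated peak over 217442 bp. The treated lists held 5 to 7 peaks there, with 326 to 750 bases in all, and chr6:26774821-26856132 had no peak of any list over 81312 bp. The emptiest part of the untreated profile thus stayed nearly empty after treatment.

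**Figure D1:**
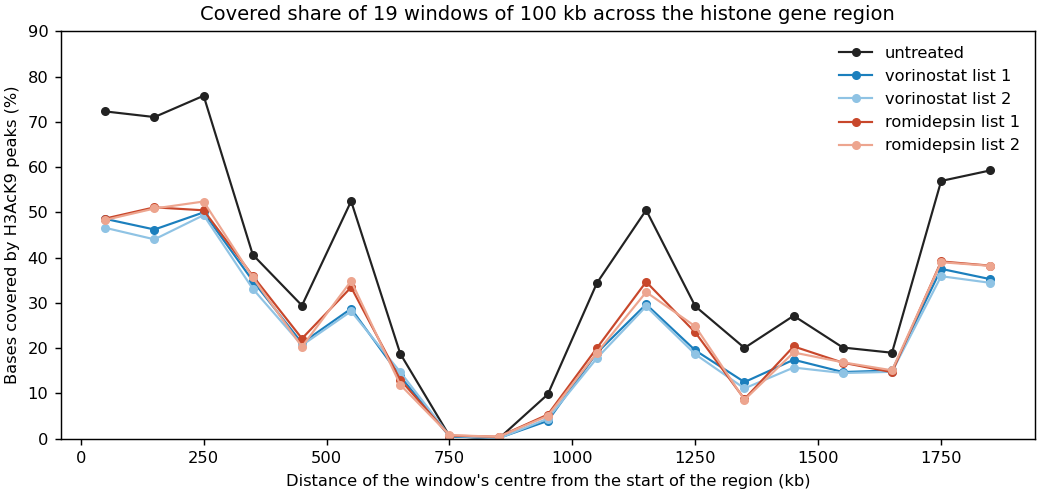
The x axis is the distance of each 100 kb window's centre from the start of the region (kb) and the y axis the share of its bases under H3AcK9 peaks (%), with 1 line for each of the 5 lists. Wherever the untreated list covered at least 1000 bases, its line lies above the 4 treated lines, for example in the first 300 kb with 73.0% against 46.7% to 50.5%, and all lines approach 0 in the stretch between 700 and 900 kb.

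At a finer scale, the comparison with the rest depended on the threshold. Of the bins of 10 kb, 157 held at least 500 untreated covered bases and 33 fewer. Covered bases were at least 2-fold lower in 38 of them (24.2%) with vorinostat and in 32 (20.4%) with romidepsin. In the rest of chromosome 6 the shares were 35.1% and 33.9%, both above those of the region. By this rule 17 bins of the region were lower with both drugs, a count not made in the rest. At a threshold of 1.5-fold the order turned with vorinostat, with 58.6% of the region's bins against 50.3% of the rest, and the shares were close with romidepsin, at 47.8% and 47.6%. At least 2-fold higher coverage was found in 2 bins (1.27%) with each drug, where the rest had 4.76% and 6.38%. The median ratio of the region's bins was 0.626 with vorinostat and 0.673 with romidepsin, against 0.663 and 0.695 in the rest. Of the 18 bins with at least 8000 untreated covered bases, none was 2-fold lower with either drug, and together their covered bases changed by factors of 0.674 and 0.702. In the rest of chromosome 6, 9.80% and 6.86% of 102 such bins were 2-fold lower, with factors of 0.728 and 0.723. The 45 bins with 5000 to 8000 untreated covered bases had factors of 0.582 and 0.631, against 0.702 and 0.742 over 558 such bins in the rest. Of these, 22.2% and 17.8% were 2-fold lower in the region and 15.2% and 9.86% in the rest, the opposite order to that of the fuller bins. The 56 bins with 2000 to 5000 such bases had factors of 0.635 and 0.725, against 0.692 and 0.781 over 2214 in the rest. Below 2000, the factors were 0.807 and 0.804 in 38 bins of the region, against 0.811 and 0.860 over 4630 of the rest. The region's factor was thus the lower one in each class of untreated coverage, though by little in the last with vorinostat.

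Most untreated peaks of the region still had a treated peak on them, and the wide ones had several. The median was 1 treated peak on each untreated peak with either drug, but 3 and 3.5 on those of 2 kb to under 5 kb. An untreated peak counted as lost where no peak of either list of a drug shared a base with it. That held for 119 of the 432 untreated peaks (27.5%) with vorinostat and for 111 (25.7%) with romidepsin. In the rest of chromosome 6 it held for 45.2% and 43.5%. The lost peaks were narrow. Of the 149 untreated peaks under 500 bp, 82 were lost with vorinostat and 80 with romidepsin, and of the 186 peaks from 500 bp to under 2 kb, 37 and 31. These are 55.0% and 53.7% of the narrowest class, against 62.8% and 61.6% in the rest, and 19.9% and 16.7% of the next, against 31.8% and 29.3%. None of the 66 peaks of 2 kb to under 5 kb or of the 31 wider ones was lost with either drug. The rest was much alike in this. It lost 0.357% and 0.624% of its 1121 peaks of 2 kb to under 5 kb, and none of its 280 wider ones. In all 4 treated lists together, 58 untreated peaks had no peak on them, with a median width of 249 bp and a largest width of 1011 bp. A peak on them in each of the 4 lists was found for 217, with a median width of 1757 bp. Neither count was made in the rest of chromosome 6.

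The share of untreated bases that stayed under a peak rose with the width of the untreated peak, in the region as in the rest. In the region, vorinostat peaks covered 17.5% of the bases of untreated peaks under 500 bp, 30.2% at 500 bp to under 2 kb, 53.1% at 2 kb to under 5 kb, and 62.8% at 5 kb and over. With romidepsin these shares were 20.2%, 31.6%, 51.7% and 65.0%. Over all widths the region kept 48.2% and 49.2% of its untreated bases, and the rest of chromosome 6 kept 35.6% and 36.5%. When the shares of the rest were weighted by the region's own mix of widths in these 4 classes, they came to 50.2% and 49.8%. The region's higher share of kept bases thus went with its wide peaks. Within the class of 5 kb and over, the region kept somewhat less than the rest, where the shares were 69.4% and 66.8%. The same held at 2 kb to under 5 kb, with 55.0% and 54.7% in the rest. In the narrower classes the region kept more. There the rest kept 16.9% and 18.2% under 500 bp, and 26.3% and 28.6% at 500 bp to under 2 kb.

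Less of the treated coverage was new in the region than in the rest. Of the treated peaks in the region, 35.4% to 36.5% shared no base with an untreated peak, against 65.2% to 68.7% in the rest. These peaks were narrow, with median widths of 168 to 178 bp, where those on untreated peaks had 355 to 395 bp. Their bases made up 24.4% to 28.9% of the treated coverage in the region and 57.9% to 59.2% in the rest, counting all treated bases outside untreated peaks. Written as parts of the untreated coverage, the vorinostat lists kept 0.487 and 0.477 and added 0.165 and 0.154 in the region, and kept 0.356 in both lists and added 0.509 and 0.490 in the rest. The romidepsin lists kept 0.494 and 0.490 and added 0.201 and 0.199 in the region, and kept 0.367 and 0.364 and added 0.533 and 0.510 in the rest. The region thus kept more and added less, relative to what it had. Untreated peaks already covered 36.2% of the region, against 10.1% of the rest. Whether this bears on the additions was not tested. Measured against the bases that were free of untreated peaks, the order turned: new coverage took 8.73% to 11.4% of them in the region and 5.48% to 5.96% in the rest.

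The wide untreated peaks show how this looked on the chromosome. The widest was chr6:27859080-27873854, of 14775 bp. It carried 11 peaks in each vorinostat list, over 60.0% and 62.4% of its bases, and 12 and 13 in the romidepsin lists, over 68.9% and 63.9%. The next, chr6:27096321-27110050, of 13730 bp, carried 12 and 12 vorinostat peaks over 62.5% and 59.1% of its bases, and 9 and 11 romidepsin peaks over 74.4% and 65.9%. The next in width, chr6:26213445-26225312, of 11868 bp, carried 9 and 11 vorinostat peaks over 67.2% and 59.9%, and 11 and 10 romidepsin peaks over 68.2% and 65.6%. Each of the 3 thus carried between 9 and 13 pieces, which took up more of its length than the gaps between them. The largest losses of covered bases were those of the 2 widest peaks, with 5346 and 4741 bases as means over the treated lists, and of chr6:26591538-26600982, of 9445 bp, with 4322 bases. The last had 10 and 10 vorinostat peaks over 55.6% and 56.4% of it, and 11 and 9 romidepsin peaks over 51.7% and 53.3%.

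The pieces were spaced about 1 kb apart. On the 31 untreated peaks of at least 5 kb, the median distance between the centres of neighbouring pieces was 1146 and 1078 bp in the vorinostat lists and 954.5 and 1012.5 bp in the romidepsin lists. In the rest of chromosome 6 it was 1250 and 1192.5 bp, and 1057 and 1031 bp. The median peak of this class carried 7 pieces in the region with either drug, and 5 and 6 in the rest. Individual peaks of this class departed from the average. Of those at least 5 kb wide, named here after their values were seen, chr6:26043263-26050180 kept the most on average over the treated lists, at 73.6% and 79.3% with vorinostat and at 88.7% in both romidepsin lists. Its neighbour chr6:26036238-26042709 kept the least on that average, at 38.5% and 25.3% with vorinostat and at 48.5% and 36.4% with romidepsin. The peak with the highest deposited score of the untreated list, 8.04, was narrow: chr6:27176883-27177661, of 779 bp, kept 85.9% and 85.0% with vorinostat and 36.1% and 33.2% with romidepsin.

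Joined across gaps of up to 1000 bp, the untreated peaks of the first stretch formed long blocks. The longest, chr6:26012587-26072706, spanned 60120 bp with 9 untreated peaks over 91.8% of it. Treated lists held 52 to 55 peaks in it, which covered 59.5% and 57.1% with vorinostat and 65.1% and 63.7% with romidepsin. The next, chr6:26183668-26236305, spanned 52638 bp with 10 untreated peaks over 88.4% of it and 44 to 51 treated peaks, over 56.4% and 55.3% with vorinostat and 58.3% and 60.3% with romidepsin. When treated peaks were joined by the same rule, the longest block was 61879 bp in both romidepsin lists, at chr6:26012573-26074451. In the vorinostat lists the longest was 27979 and 26024 bp, so the same stretch was split there by gaps over 1000 bp.

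Places under a peak in all treated lists and with no untreated peak within 1000 bp numbered 29, with 3994 bases in all. That is 46.0 places per Mb of sequence farther than 1000 bp from an untreated peak, against 26.7 per Mb in the rest of chromosome 6. The longest was chr6:27501234-27501749, where each of the 4 lists had 1 peak with 516 bases at the place and the nearest untreated peak lay 1609 bp away. At chr6:27524010-27524678, each vorinostat list had 1 peak over 669 bases and each romidepsin list 2 peaks over 444 bases. At chr6:26517509-26517835, all 4 lists covered 327 bases. The bin of 10 kb around the second of these places, starting at 27520000, had at least 2-fold higher coverage after romidepsin, with 959 untreated bases, 1906 and 1814 after vorinostat, and 3389 and 3053 after romidepsin. At the other end, the 880 untreated bases of the bin starting at 26940000 had no treated peak in any list. These bins were chosen after their values were seen.

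The drugs had similar totals in the region and shared part of their bases. Romidepsin peaks were 1.10 times as many as vorinostat peaks, with 1.09 to 1.11 over the pairs of lists, and covered 1.08 times as many bases, with 1.06 to 1.10. In the rest of chromosome 6 the ratios were 1.01 for peak number and 1.04 for covered bases. In 12 of the 17 windows of 100 kb with untreated coverage both romidepsin lists covered more than both vorinostat lists, in 2 both covered less, and in 3 the lists overlapped. These windows were not counted in the rest of chromosome 6, so this order is not shown to be particular to the region. The lists of 1 drug shared 87.6% to 90.6% of their bases with each other, and 387 peaks were identical in both vorinostat lists and 482 in both romidepsin lists. Between the drugs the lists shared 51.3% to 56.7% of their bases and no identical peak. Elsewhere on chromosome 6 these shares were 81.0% to 85.5% within a drug and 37.6% to 40.2% between the drugs, both lower than in the region. Identical peaks were nearly absent between the drugs there too, with 1 for each pair of lists, against 18039 within vorinostat and 19454 within romidepsin. As both drugs were compared with the same untreated list, their shared losses are not separate observations. All 4 treated lists covered 27.6% of the untreated bases, and 30.2% of these bases were in none of them. Neither share was taken in the rest of chromosome 6, so neither is shown to be particular to the region. With 1 sample per drug, a difference between drugs and one between samples cannot be told apart.

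The region holds a HERV locus, a remnant of an endogenous retrovirus, that the study picked for a change in acetylation on these same samples, so its values are a description only. This locus of the HERVIP group, at chr6:27146043-27154305 on the plus strand, is 8263 bp long. Untreated peaks covered 71.8% of it, vorinostat peaks 17.4% and 22.5%, and romidepsin peaks 27.5% and 19.2%. Some histone genes have nearly identical copies within the cluster. How reads that match several places were handled is not given in the sources used here, so the part of such reads in these peaks was not tested.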

How the data were processed

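The data were 5 peak lists from 3 H3AcK9 ChIP-seq samples of SKOV3 WT. The 3 input samples had no list here. According to the study's methods and processing notes, reads were cleaned by SOAPnuke and mapped by SOAP aligners or BWA, after which the authors ran MACS 1.4.2 on each list separately, at a p-value of 1e-05. Each deposited peak carries a score, whose scale is not given in the sources used here and which served only as a filter at 1. The study gives an average read number but none for each list, and the depth behind a single list is not known here. Drosophila chromatin was added to the study's ChIP as a spike-in, but the methods describe no scaling of the peak lists by it. Whether less coverage means less H3AcK9 was therefore not tested. Splitting a peak raises the peak number but not the covered bases, so both are given.

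The labels and a note of the study name hg38. On chromosome 6, however, 27 to 77 peaks per list ended beyond its hg38 length, and a supplementary table of the study marks its positions as hg19, so hg19 was taken as the build. No genome or annotation of hg19 was used here. Peaks were therefore not assigned to genes, the planned counts per gene were not made, and no peak sequence is printed. Gene order and promoters came from RefSeq (GRCh38.p14), and no position was converted.

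Peak numbers, covered bases and overlaps of at least 1 bp were computed with Python 3.11.15, NumPy 2.4.6 and pandas 2.3.3, with figures in Matplotlib 3.10.9. Overlaps equalled those of bedtools 2.31.1, and the functions were tested on simulated data (10 of 10 quantities recovered). A fold change is the average over a drug's lists, relative to the untreated list, without a test. Windows needed at least 100 untreated peaks (1.9 Mb) or 1000 untreated bases (100 kb), and bins of 10 kb at least 500. Named regions were the 3 widest untreated peaks, the 3 over 1000 bp with the largest loss of covered bases, the 3 places without an untreated peak within 1000 bp with the most bases in all 4 treated lists, the 5 windows of 100 kb with the most untreated bases, and those with the highest and lowest ratio for each drug. The alternatives were each list alone, filters on score and width, merging across 300 or 1000 bp, other bounds of the region, and other comparison regions. The members, lists and rules were chosen with earlier results of these data known. The comparisons at like peak widths and like untreated coverage, the 3 stretches and the blocks were chosen after seeing the data.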

Additional observations from a re-analysis of the deposited data

How the results depend on the processing

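With a single list in place of both, every fold change kept its direction, and the counts stayed within 1.5 times. As both lists of a drug were taken as coming from 1 sample, this gives no measure of the spread between samples. No peak crossed the edge of the region, so that keeping only peaks wholly inside it left the fold changes as they were. Scores of at least 1 moved the fold change in covered bases to 0.565 with vorinostat and 0.494 with romidepsin, and its ratio to that of the rest to 1.04 (reversed) and 0.956. Peaks of at least 200 bp gave 0.579 and 0.631 for covered bases, 0.818 and 0.848 relative to the rest, and 1.60 for the peak number with vorinostat. Merging across 300 bp gave 0.718 and 0.793 for covered bases, 0.758 and 0.793 relative to the rest, and a relative peak number of 0.944 with vorinostat (reversed). Merging across 1000 bp gave peak numbers of 1.30 and 1.22, relative peak numbers of 0.787 and 0.836 (both reversed), covered bases of 0.961 with vorinostat and 1.06 with romidepsin (reversed), and 0.766 relative to the rest with vorinostat. Trimming 100 kb from both ends gave a relative peak number of 0.985 with vorinostat (reversed) and covered bases of 0.699 with romidepsin. Set against the 19 other chromosomes with peaks in all lists, the relative covered bases were 0.729 and 0.712, and among 10 kb bins with an untreated peak 0.827 and 0.835.

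Bins with lower coverage numbered 92 with vorinostat and 75 with romidepsin of 157 at a threshold of 1.5-fold (rest of chromosome 6, 50.3% and 47.6% of bins). At 2-fold they numbered 102 and 84 of 292 in bins of 5 kb (rest 44.5% and 42.2%), 10 and 11 of 79 in bins of 20 kb (rest 25.0% and 24.2%), and 12 and 13 of 157 after merging across 1000 bp (rest 23.2% and 23.9%). The relative peak number was highest at scores of at least 1, with 1.401 and 1.39, and was 1.23 and 1.34 at 200 bp and 1.15 and 1.19 among bins with an untreated peak. Untreated peaks with less than 50% of their bases under a peak of either list numbered 293 and 284 of 432 (67.8% and 65.7%). The same count was not made in the rest of chromosome 6, so these shares have no background beside them. The share of untreated bases kept, relative to the rest, was 0.962 and 0.987 at like widths, and 1.36 and 1.35 without width classes (reversed). The cause of these shifts was not tested, apart from the stricter or looser rule itself. No paired analysis was possible because each condition had 1 ChIP sample. The unknown depth of each list, the single sample per condition and the unknown scale of the score limit all values. So does the absence of a described scaling by the spike-in.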
